A study of Homo sapiens with 18 samples.

Results

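The genes described here are 10 genes of the response to low oxygen, namely HIF1A, EPAS1, CA9, CA12, ADM, NDRG1, EGLN1, EGLN3, BNIP3 and ANKRD37. They were chosen by gene symbol, with earlier results of these data known, and VEGFA is not among them. All 10 were found among the 19901 genes counted, and all 10 were among the 15475 genes with enough reads to be tested. mRNA sequencing was performed on 3 established cell lines of head and neck squamous cell carcinoma, each left untreated (control) or stimulated with hepatocyte growth factor (HGF, the ligand of the Met receptor) at 50 ng/mL, to find which genes HGF regulates. SCC-9 is a tongue cancer line and FaDu a hypopharyngeal one, both of primary origin, whereas Detroit 562 derives from a metastasis of pharyngeal cancer. Each of the 6 groups had 3 libraries, numbered 1 to 3. All cells were seeded at 750000 per well. HGF was added on the following day for 16 h according to the sample records, whereas the series record gives 48 h. Cells were then detached with trypsin. The medium was MEM-α for Detroit 562 and FaDu, whereas SCC-9 was kept in DMEM F12 with HEPES and 400 ng/ml hydrocortisone, so cell line and medium cannot be told apart in SCC-9. The labels name no culture in low oxygen.

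Total counts per library ranged from 35304770 to 44003970. Of 10 epithelial markers, 9 or 10 were above 1 CPM (counts scaled to the library total) in every library of each group, with a sum between 5050 and 17900 CPM. The summed markers of fibroblasts ranged from 3.6 to 99.5, of leukocytes from 20.3 to 65.7 and of endothelium from 0.487 to 8.34 CPM. Both FaDu libraries numbered 2, the control and the HGF library, stood apart from the other 4 FaDu libraries in several of the 10 genes. The comparisons of untreated lines for NDRG1 are given with and without them. Per the study's methods the sequencing experiment was carried out and then repeated 2 times. The edgeR p-values rest on the spread between libraries of the same group, estimated for each gene over all 6 groups in a fit of the 18 libraries. The spread within 1 line thus also enters the p-values of the other lines. In bulk RNA, fewer cells that express a gene and less RNA per cell cannot be told apart.

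Cells sense oxygen through the hypoxia-inducible factors (HIFs), transcription factors with an oxygen-labile α subunit and a stable partner, ARNT. When oxygen is available, prolyl hydroxylases of the EGLN family mark the α subunit for destruction by the VHL ubiquitin ligase, so HIF activity is mostly set at the protein level and not by the mRNA of the subunit. When oxygen is low, or when growth factor signaling raises synthesis of the subunit, HIF binds the core sequences ACGTG and GCGTG near its target genes. HIF1A and EPAS1 encode the α subunits HIF-1α and HIF-2α, and EGLN1 and EGLN3 encode hydroxylases that are themselves HIF targets. CA9 and CA12 encode carbonic anhydrases of the cell surface that regulate pH. ADM encodes the vasodilator peptide adrenomedullin, NDRG1 a stress-induced cytoplasmic protein, BNIP3 a mitochondrial protein that promotes mitophagy, and ANKRD37 a small ankyrin repeat protein.

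RefSeq promoters of the assembly GRCh38.p14 were searched for both core sequences on both strands in the 250 bases before the annotated start. Of 35116 promoters of this length, 18.5% held ACGTG, 32.2% held GCGTG and 43.2% held at least one of them. Of the 9 genes searched, which leave out NDRG1, ACGTG was found before CA9 (1 match), EGLN1 (1 match), BNIP3 (2 matches) and ANKRD37 (3 matches). GCGTG was found before EPAS1, CA12 and ADM and in 1 of 2 promoters of HIF1A (1 match each) and before BNIP3 (4 matches). Neither was in the window of EGLN3. Matches can overlap, since ACGTG read on both strands gives the palindrome CACGTG, as in BNIP3 and ANKRD37. The following 30-base stretches of the gene's own strand are shown because they hold the core sequence, in capitals, closest to the start of each gene or, for ANKRD37 and BNIP3, one of several. They lie before the RefSeq start of CA9 at chr9:35673898-35673927, EGLN1 at chr1:231422288-231422317, BNIP3 at chr10:131982040-131982069, ANKRD37 at chr4:185396686-185396715 and ADM at chr11:10304960-10304989. EGLN1 and BNIP3 are on the minus strand and the others on the plus strand. The starts are those of the RefSeq promoters, and the gene extents of the count table, given with each gene further on, begin farther upstream for CA9, EGLN1, ANKRD37 and ADM, so that these 4 stretches lie inside those extents. Capitals reading CACGT are ACGTG on the opposite strand.
CA9: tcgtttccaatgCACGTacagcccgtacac
EGLN1: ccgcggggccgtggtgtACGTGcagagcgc
BNIP3: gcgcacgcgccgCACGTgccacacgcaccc
ANKRD37: cagtgtttgtgtACGTGcggccgtggcggg
ADM: gagcaggagcgcGCGTGgctgaggaaagaa
The match lay 18 bases before the RefSeq start of CA9, 13 before EGLN1, 134 before BNIP3, 143 before ANKRD37 and 101 before ADM. A match describes the letters of the window and not binding by a factor, which was not measured here.

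**Figure D1:**
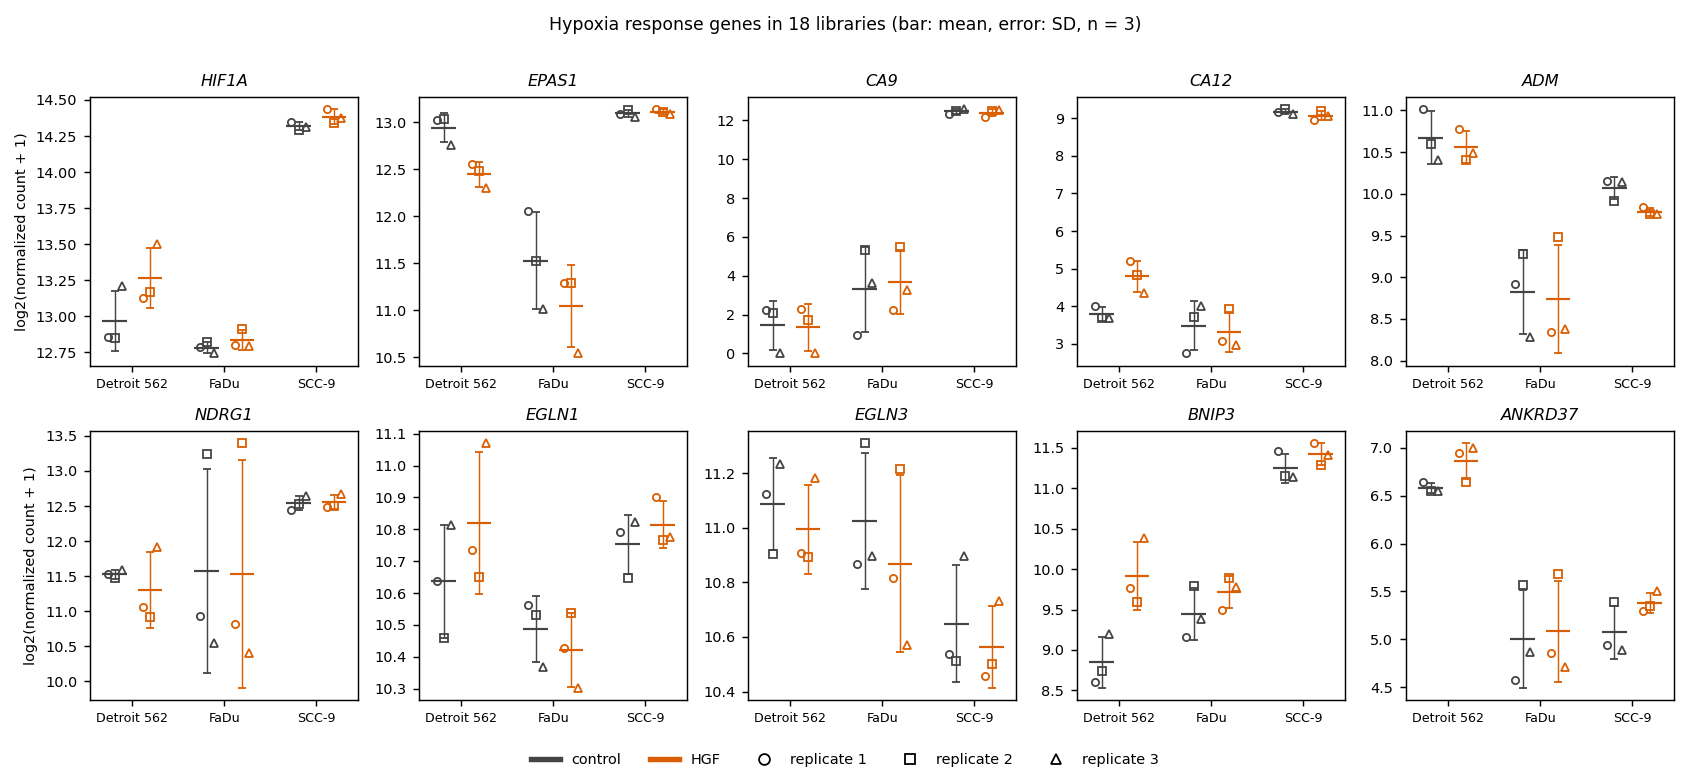
Each panel shows 1 gene as log2(normalized count + 1) in the 18 libraries, by cell line on the horizontal axis, with control in grey and HGF in orange, symbols for libraries 1 to 3, and the mean and SD of 3 libraries. CA9 and CA12 stood high in SCC-9 and near the detection floor in the other lines, BNIP3 and CA12 were higher with HGF in Detroit 562, and the squares of FaDu (libraries numbered 2) stood high in NDRG1, CA9, ADM and ANKRD37.

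The untreated cell lines were compared first, since they show the level from which any response to HGF starts. Values are counts normalized by the TMM method to a common library size of 40094689 counts. A gene was called different when edgeR's quasi-likelihood test gave a Benjamini-Hochberg adjusted p below 0.1 over all tested genes and the log2 fold change was at least 0.4 in either direction. Of the 10 genes, 5 were called between Detroit 562 and FaDu, 3 higher and 2 lower in Detroit 562, where 61% of all tested genes were called, 31.2% higher and 29.8% lower. Between Detroit 562 and SCC-9 it was 7, 3 higher and 4 lower in Detroit 562, against 65.3% of all genes, 31.4% higher and 33.9% lower. Between FaDu and SCC-9 it was 6, all lower in FaDu, against 64.1% of all genes, 30.7% higher and 33.5% lower. These counts take EGLN3 as counted. After the subtraction described below, EGLN3 was also called between FaDu and SCC-9, higher in FaDu. The libraries did not overlap in 4, 9 and 7 of the 10 genes in these comparisons, against 74%, 80.7% and 78.6% of all genes. Most genes differed between these lines, and the share of the 10 genes called was near that of all genes. The median log2 difference of FaDu minus SCC-9 was -1.35 over the 10 genes and -0.0172 over all genes.

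HIF1A (chromosome 14, 61695513 to 61748259 on the plus strand in the annotation of the files) had the highest level of the 10 genes per kilobase of exon in each line. Its normalized counts in untreated cells were 20850, 20070 and 20310 in SCC-9. They were 7399, 7368 and 9477 in Detroit 562 and 7068, 7228 and 6851 in FaDu. SCC-9 was thus above every library of the other lines. The log2 fold change was -1.34 ± 0.0975 (SE, adjusted p = 1.3e-09 by edgeR) for Detroit 562 and -1.53 ± 0.098 (adjusted p = 2.44e-10) for FaDu, each relative to SCC-9. Detroit 562 and FaDu did not overlap, but the log2 difference of 0.20 was below the minimum. Of 5 tested neighbours within 500 kb of HIF1A, 4 were called lower in FaDu than in SCC-9 and 0 higher, with a median log2 of -0.902. Between Detroit 562 and SCC-9, 3 of these neighbours were called higher and 2 lower in Detroit 562. Per kilobase of exon HIF1A reached 98.8 ± 1.97 CPM (SD, n = 3) in SCC-9, 39.1 ± 5.85 in Detroit 562 and 34.1 ± 0.918 in FaDu.

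EPAS1 (chromosome 2, 46293667 to 46386703, plus strand) was ordered differently. SCC-9 gave 8733, 8997 and 8553, Detroit 562 gave 8361, 8389 and 6952, and FaDu gave 4245, 2937 and 2067 normalized counts. FaDu was below all libraries of the other lines, with a log2 fold change of -1.51 ± 0.214 (SE, adjusted p = 1.08e-05 by edgeR) relative to SCC-9. Detroit 562 exceeded FaDu by 1.36 ± 0.213 on the log2 scale (adjusted p = 3.29e-05) and was not called against SCC-9, with a log2 difference of -0.15 ± 0.209, although its libraries were all below those of SCC-9. The 3 FaDu controls spread over a coefficient of variation of 35.6%, against 2.55% in SCC-9. All 6 tested neighbours within 500 kb of EPAS1 were also called higher in Detroit 562 than in FaDu, by a median log2 of 1.21.

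The hydroxylase EGLN1 (chromosome 1, 231363751 to 231425044, minus strand) differed least. The mean was 1599 ± 195 (SD, n = 3) for Detroit 562 and 1437 ± 101 for FaDu, and SCC-9 had 1727 ± 110. None of the 3 comparisons was called, and the largest log2 difference was -0.27 ± 0.108 (SE, adjusted p = 0.0346 by edgeR) for FaDu relative to SCC-9, in which the libraries did not overlap.

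EGLN3 (chromosome 14, 33924231 to 34462774, minus strand) needed a correction. The authors counted every read within the extent of a gene on its strand, and SPTSSA, a subunit of serine palmitoyltransferase, lies inside this extent on the same strand (34432789 to 34462356). As counted, EGLN3 gave 2231, 1913 and 2409 for Detroit 562 and 1866, 2540 and 1905 for FaDu. SCC-9 gave 1486, 1460 and 1906, so the 3 ranges lay close together. After the counts of SPTSSA were subtracted, Detroit 562 kept 1194, 1139 and 1297, FaDu 686, 1460 and 631, and SCC-9 212, 234 and 284. SCC-9 was then below all other libraries. The log2 fold change of Detroit 562 relative to SCC-9 rose from 0.43 ± 0.163 (SE, adjusted p = 0.0232 by edgeR) as counted to 2.32 ± 0.359 (adjusted p = 2.79e-05). For FaDu relative to SCC-9 it rose from 0.38 ± 0.163, which was not called, to 1.93 ± 0.357 (adjusted p = 0.000163). The call as counted was lost without Detroit 562 control 3, SCC-9 control 1 or SCC-9 control 2, since the log2 value then fell to between 0.36 and 0.38. The subtraction was chosen after these values were seen, and it assumes that each read counted for SPTSSA was also counted for EGLN3.

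**Figure D2:**
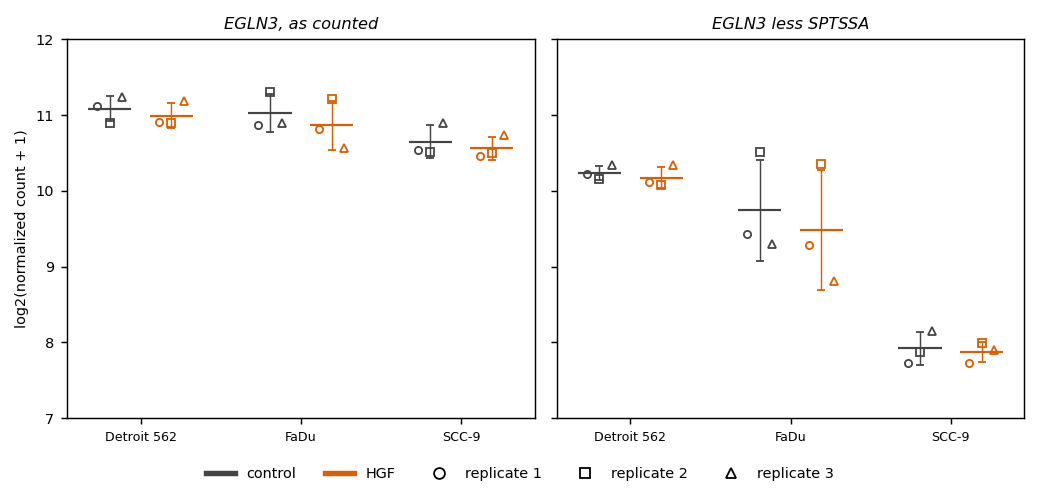
EGLN3 in the 18 libraries as log2(normalized count + 1), on the left as counted and on the right after the counts of SPTSSA, which lies within EGLN3 on the same strand, were subtracted. Bars are means and error bars SD of 3 libraries. As counted the 3 lines lay close together, and after subtraction the SCC-9 controls (212 to 284) were below all Detroit 562 and FaDu libraries.

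The surface carbonic anhydrases separated SCC-9 from the other lines. CA9 (chromosome 9, 35673856 to 35681159, plus strand) gave 5122, 5840 and 6080 normalized counts in untreated SCC-9. FaDu gave 0.952, 39.3 and 11.3, from 1, 39 and 12 reads. Detroit 562 gave 3.78, 3.27 and 0, from 4, 3 and 0 reads. The summed reads of SCC-9 exceeded those of FaDu by 339-fold (95% interval 258 to 454) and those of Detroit 562 by 2350-fold (1140 to 5850), where the intervals cover counting error only. The edgeR log2 fold changes relative to SCC-9 were -8.39 ± 0.501 (SE, adjusted p = 6.12e-10) for FaDu and -11.1 ± 0.635 (adjusted p = 3.25e-10) for Detroit 562. Per kilobase of exon, CA9 reached 88.7 ± 7.78 CPM (SD, n = 3) in SCC-9, next to HIF1A at 98.8. FaDu was called above Detroit 562 (log2 fold change of Detroit 562 minus FaDu -2.74 ± 1.26, adjusted p = 0.0626), but the libraries overlapped. That call was lost without FaDu control 2 (log2 -1.31, adjusted p = 0.44) and without any 1 of the 3 Detroit 562 controls (adjusted p between 0.101 and 0.168).

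The genes around CA9 were also higher in SCC-9. All 22 tested genes within 500 kb were called lower in Detroit 562 and in FaDu than in SCC-9, with median log2 differences of -4.71 and -4.33. CA9 lay in an unbroken run of 25 tested genes between 35490127 and 36487548 of chromosome 9, each at least 4-fold higher in untreated SCC-9 than in both other lines. Of all tested genes 5.08% met this criterion. The run ended upstream at UNC13B, with a log2 excess of SCC-9 of 1.05 over Detroit 562 and 2.08 over FaDu. Farther upstream, genes such as VCP (3.45 and 3.36) and FAM219A (4.26 and 4.12) were again higher in SCC-9, so the run does not bound the higher region. Without CA9, the median excess of SCC-9 in the run was 23.5-fold over Detroit 562 and 19.9-fold over FaDu. The gene ARHGEF39 overlaps CA9 on the opposite strand and had 11680 ± 595 normalized counts (SD, n = 3) in SCC-9, 591 ± 59.2 in FaDu and 832 ± 162 in Detroit 562. The excess of CA9 was greater than the median of the run over both lines. Copy number was not measured here. The run was noticed in these data and is given as a description.

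**Figure D3:**
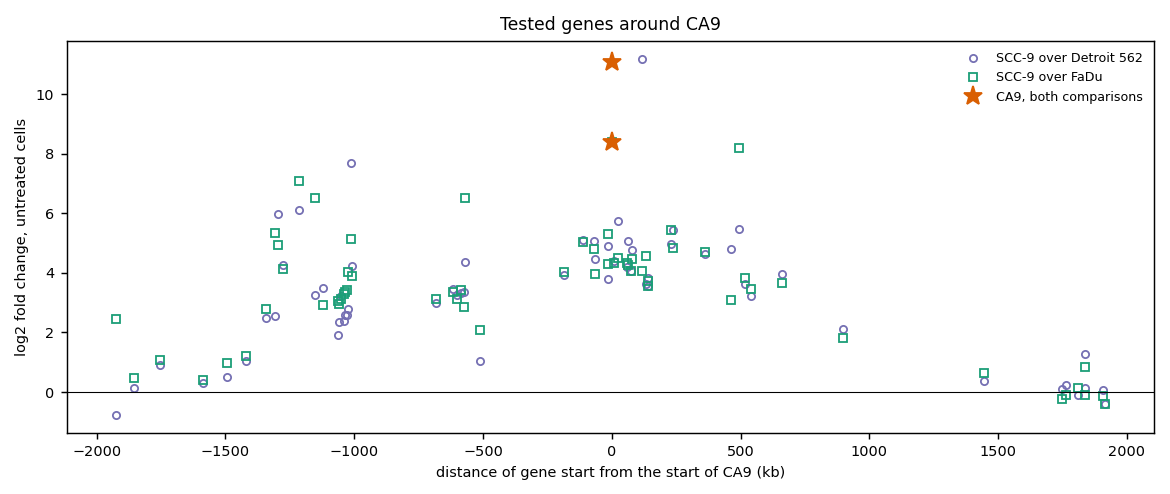
Tested genes within 2 Mb of CA9 by the distance of their start from that of CA9 in kb, with the log2 fold change of untreated SCC-9 over Detroit 562 (circles) and over FaDu (squares). Stars mark CA9 at 11.1 and 8.39, and the 24 other genes of its run lay at least 8.46-fold above the other lines. The 8 genes farthest downstream lay between -0.397 and 1.26 on the log2 scale. Upstream, UNC13B (1.05 over Detroit 562 and 2.08 over FaDu) ended the run. Beyond it genes such as VCP (3.45 and 3.36) and FAM219A at -1276 kb (4.26 and 4.12) were again higher in SCC-9.

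CA12 (chromosome 15, 63321378 to 63382161, minus strand) was likewise high in SCC-9, without such a neighbourhood. Untreated SCC-9 gave 574, 606 and 551 normalized counts, FaDu 5.71, 12.1 and 15.1 and Detroit 562 15.12, 11.98 and 11.88. The log2 fold change relative to SCC-9 was -5.70 ± 0.249 (SE, adjusted p = 2.12e-12 by edgeR) in FaDu and -5.45 ± 0.245 (adjusted p = 2.4e-12) in Detroit 562, and these lines did not differ from each other beyond the spread of their libraries. The 9 tested neighbours of CA12 within 500 kb had median log2 differences of 0.175 and -0.341 in the same comparisons.

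Of the secreted and stress-induced targets, ADM (chromosome 11, 10304680 to 10307397, plus strand) was highest in Detroit 562. Normalized counts were 2073, 1550 and 1350 in Detroit 562, 1135, 967 and 1129 in SCC-9 and 484, 618 and 311 in FaDu, and the 3 ranges did not overlap. Detroit 562 exceeded FaDu by 1.82 ± 0.28 on the log2 scale (SE, adjusted p = 2.69e-05 by edgeR) and SCC-9 by 0.62 ± 0.269 (adjusted p = 0.0462). The latter call was lost without Detroit 562 control 1 (log2 0.43, adjusted p = 0.196) or SCC-9 control 2 (log2 0.55, adjusted p = 0.125). FaDu was below SCC-9 (log2 -1.20 ± 0.278, adjusted p = 0.00113). Of 8 tested neighbours within 500 kb of ADM, 5 were called lower in FaDu than in SCC-9 and 0 higher (median log2 -1.23). Detroit 562 was called above FaDu in 5 and below it in 0 (median log2 0.928). Relative to SCC-9, Detroit 562 was called above in 1 and below in 3 (median log2 -0.452).

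NDRG1 (chromosome 8, minus strand) was not called in any of these comparisons. Untreated SCC-9 gave 5566, 5932 and 6406, Detroit 562 gave 2944, 2826 and 3077, and FaDu gave 1953, 9706 and 1486 normalized counts. SCC-9 and Detroit 562 were each tight and did not overlap, with a log2 difference of -1.02 ± 0.709 (SE, adjusted p = 0.204 by edgeR). The SE is that of a fit to all 18 libraries, which takes in the spread of FaDu. Without both FaDu libraries numbered 2, the same difference was -1.02 ± 0.209 (adjusted p = 0.000564). FaDu was then below SCC-9 by a log2 of -1.79 ± 0.248 (adjusted p = 1.96e-05) and below Detroit 562, since Detroit 562 minus FaDu turned from -0.57 ± 0.705 to 0.78 ± 0.239 (adjusted p = 0.0106).

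BNIP3 (chromosome 10, 131966455 to 131982013, minus strand) was highest in SCC-9, at 2809, 2273 and 2260 normalized counts. FaDu gave 569, 887 and 665 and Detroit 562 gave 388, 426 and 587. The log2 fold change relative to SCC-9 was -1.79 ± 0.209 (SE, adjusted p = 9.45e-07 by edgeR) in FaDu and -2.39 ± 0.215 (adjusted p = 4.08e-08) in Detroit 562. Detroit 562 was called below FaDu (log2 -0.60 ± 0.212, adjusted p = 0.0189), but the libraries overlapped, and the call was lost without FaDu control 2 (log2 -0.40, adjusted p = 0.114).

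ANKRD37 (chromosome 4, 185396021 to 185400628, plus strand) was low in all lines and highest in Detroit 562, at 99.2, 92.6 and 92.9 normalized counts. FaDu gave 22.9, 46.3 and 28.2 and SCC-9 gave 29.7, 41.0 and 28.6. Detroit 562 exceeded FaDu by 1.55 ± 0.265 (SE, adjusted p = 5.05e-05 by edgeR) and SCC-9 by 1.51 ± 0.264 (adjusted p = 5.68e-05) on the log2 scale, and FaDu and SCC-9 did not differ beyond their spread. Of 9 tested neighbours within 500 kb, 7 were called higher in Detroit 562 in each comparison. UFSP2, which overlaps ANKRD37 on the opposite strand, was also highest in Detroit 562, at 1795 ± 42.3 normalized counts (SD, n = 3), against 477 ± 17.8 for FaDu and 272.6 ± 6.88 for SCC-9.

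The sequencing asked which genes HGF regulates, within a study of HGF and glucose metabolism. In Detroit 562, BNIP3 and CA12 rose about 2.1-fold with HGF and EPAS1 fell to 0.709 of control. These 3 of the 10 genes were called, where 17.8% of all tested genes were called, 6.1% up and 11.7% down. In FaDu 0 of the 10 were called by edgeR, against 0.0258% of all genes, and DESeq2 called 0, against 0.464% of genes. There 1 of the 10 reached an unadjusted p under 0.05 by edgeR, as did 1243 of the 15475 tested genes. In SCC-9 0 were called by edgeR, against 0% of all genes, and DESeq2 called 0, against 0.13%. There 0 reached an unadjusted p under 0.05 by edgeR, against 631 of all tested genes. With the replicate block the counts were 3 for Detroit 562, 1 (EPAS1) for FaDu and 0 for SCC-9, against 21.3%, 5.58% and 1.9% of all genes. The libraries of HGF and control did not overlap in 3 of the 10 genes in Detroit 562, against 38.2% of all genes. For FaDu this was 0 of 10, against 9.41%, and for SCC-9 it was 1, ADM, against 17.4%. Markers of cell type also changed with HGF in Detroit 562. Of 10 epithelial markers 4 were called down (KRT5, KRT8, KRT19 and CDH1), and their summed level ranged from 8040 to 12000 CPM in control and from 5050 to 7950 with HGF. COL1A1 and COL1A2 of 4 tested fibroblast markers and VWF of 3 tested endothelial markers were called down and CD68 of 2 tested leukocyte markers was called up. The part of these markers in the results for BNIP3, CA12 and EPAS1 was not tested.

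**Figure D4:**
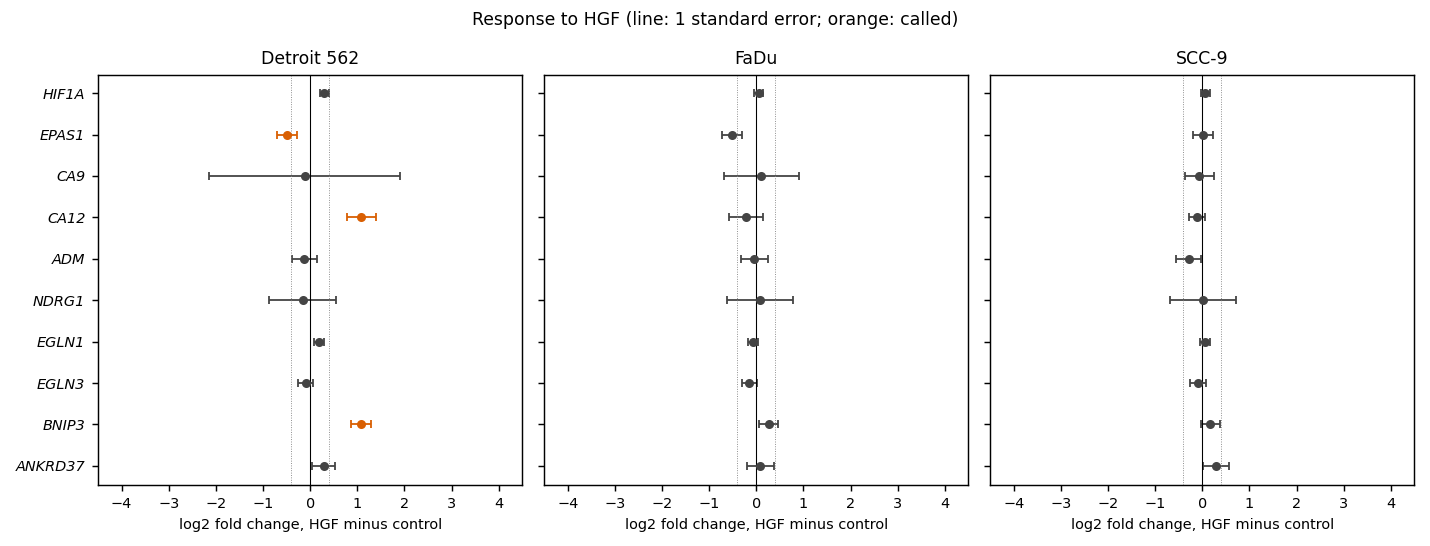
Log2 fold change of HGF minus control for the 10 genes in each cell line, with lines of 1 standard error of the edgeR fit. Dotted lines mark the minimum of 0.4 in either direction and orange marks the genes called, BNIP3, CA12 and EPAS1 in Detroit 562. The standard errors were widest for CA9 in Detroit 562 (2.03), where it had 0 to 4 reads.

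BNIP3, the mitophagy gene, gave 388, 426 and 587 normalized counts in control and 868, 772 and 1339 in HGF-treated Detroit 562. Every HGF library was above every control. The log2 fold change was 1.09 ± 0.212 (SE, adjusted p = 0.0031 by edgeR), and the two-sided exact permutation test gave 0.1, the smallest p that 3 libraries against 3 allow. In FaDu it was 0.26 ± 0.207, from 569, 887 and 665 to 722, 947 and 875. In SCC-9 it was 0.17 ± 0.199, from 2809, 2273 and 2260 to 3021, 2511 and 2731. Although neither was called, HGF was higher in 3 of 3 same-numbered pairs of libraries in each line. With the replicate block the adjusted p in FaDu was 0.0246 (edgeR), and the fold change stayed below the minimum. Even after HGF, BNIP3 in Detroit 562 (993 ± 304, SD, n = 3) remained below untreated SCC-9 (2447 ± 313).

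CA12 gave 15.12, 11.98 and 11.88 normalized counts in control and 35.7, 27.3 and 19.5 in HGF-treated Detroit 562, from 11 to 16 and 16 to 36 reads. The groups did not overlap and the log2 fold change was 1.09 ± 0.301 (SE, adjusted p = 0.0158 by edgeR). In FaDu the log2 fold change was -0.22 ± 0.363 and in SCC-9 -0.11 ± 0.174, with overlapping libraries in both. The HGF level in Detroit 562 stayed far below the 577 ± 27.7 (SD, n = 3) of untreated SCC-9.

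EPAS1 gave 8361, 8389 and 6952 in control and 6029, 5732 and 5033 in HGF-treated Detroit 562, so that every HGF library was below every control. The log2 fold change was -0.50 ± 0.21 (SE, adjusted p = 0.095 by edgeR). With the replicate block it was -0.50 ± 0.0683 (adjusted p = 4.49e-05 by edgeR). Without the block the call was close to the threshold. It was lost without Detroit 562 control 1 or 2 (adjusted p = 0.239 and 0.222), Detroit 562 HGF 1, 2 or 3 (0.114, 0.149 and 0.261), FaDu control 2 (0.112) or any 1 of the 6 SCC-9 libraries (between 0.114 and 0.116). In FaDu the log2 fold change was of similar size, -0.51 ± 0.212, but was not called (adjusted p = 0.597). There the controls were 4245, 2937 and 2067 and the HGF libraries 2511, 2512 and 1488, which overlapped, although HGF was lower in 3 of 3 same-numbered pairs. When the replicate number was taken as a block within each line, the fall in FaDu was -0.49 ± 0.0716 and was called (adjusted p = 0.000689, against 5.58% of all genes called). SCC-9 showed 8733, 8997 and 8553 in control and 9054, 8833 and 8738 with HGF, a log2 difference of 0.02 ± 0.209.

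HIF1A was not called in any line. In Detroit 562 it gave 7399, 7368 and 9477 in control and 8936, 9216 and 11620 with HGF, a log2 fold change of 0.30 ± 0.0962 (SE, adjusted p = 0.033 by edgeR) that was below the minimum of 0.4. Without Detroit 562 control 3 it was 0.43 (adjusted p = 0.00227) and was called. In FaDu and SCC-9 it was 0.05 ± 0.0961 and 0.07 ± 0.0957. HIF1A and BNIP3 were the members with a higher HGF library in all 9 same-numbered pairs of the 3 lines, as were 7.7% of all tested genes. EGLN3 as counted was lower in all 9 pairs, as were 8.42%. After subtraction of SPTSSA, EGLN3 was higher with HGF in 1 pair of SCC-9.

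The remaining 6 genes were also not called in any line. EGLN1 had log2 fold changes of 0.19 ± 0.108, -0.06 ± 0.108 and 0.06 ± 0.108 (SE), in the order Detroit 562, FaDu, SCC-9. EGLN3 as counted had -0.09 ± 0.162, -0.15 ± 0.162 and -0.09 ± 0.163, and after subtraction of SPTSSA by -0.06 ± 0.331, -0.22 ± 0.334 and -0.05 ± 0.366. With the replicate block the EGLN1 value in Detroit 562 was 0.18 ± 0.054 on the log2 scale (adjusted p = 0.0111 by edgeR), below the minimum of 0.4, and EGLN3 as counted had -0.11 ± 0.0347 averaged over the 3 lines (adjusted p = 0.0166), also below it. ADM, the adrenomedullin gene, had log2 fold changes of -0.13 ± 0.267 in Detroit 562 and -0.04 ± 0.282 in FaDu. In SCC-9 its HGF libraries (916, 864 and 864) were all below the controls (1135, 967 and 1129), a log2 difference of -0.29 ± 0.271 (adjusted p = 1 by edgeR). NDRG1 had -0.16 ± 0.707, 0.09 ± 0.701 and 0.01 ± 0.699 and ANKRD37 by 0.29 ± 0.242, 0.09 ± 0.283 and 0.30 ± 0.278. CA9 had a log2 fold change of -0.06 ± 0.311 in SCC-9, where it was abundant. In Detroit 562 it had between 0 and 4 reads in all 6 libraries, so that a response of CA9 there was not detectable at this depth.

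Averaged over the 3 lines, BNIP3 alone was called, with a log2 fold change of 0.51 ± 0.119 (SE, adjusted p = 0.0115 by edgeR), where 6.8% of all genes were called, 1.99% up and 4.81% down. BNIP3 was also the member called by the blocked model (8.78% of all genes) and by DESeq2 (7.2%). HIF1A (0.14 ± 0.0554, adjusted p = 0.0861) and EPAS1 (-0.33 ± 0.121, adjusted p = 0.07) were below the fold minimum, and EPAS1 reached it without FaDu control 3 (log2 -0.40, adjusted p = 0.0119).

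Whether the response differed between lines was tested by the interaction of line and treatment, at an adjusted p below 0.1 with no fold minimum. The model without a replicate block called 0 of the 10 genes in each of the 3 comparisons, where 0.233% (Detroit 562 against FaDu), 0.931% (Detroit 562 against SCC-9) and 0% (FaDu against SCC-9) of all genes were called. At an unadjusted p under 0.05 by edgeR there were 2, 2 and 0 of the 10, against 1790, 2374 and 333 of the 15475 tested genes. DESeq2 called 0 (against 1.85% of genes), 2 (CA12 and BNIP3, 4.56%) and 0 (0.0256%). The log2 response of BNIP3 was greater in Detroit 562 by 0.83 ± 0.296 than in FaDu (SE, adjusted p = 0.326 by edgeR) and by 0.92 ± 0.291 than in SCC-9 (adjusted p = 0.176). For CA12 these differences were 1.31 ± 0.474 (adjusted p = 0.326) and 1.19 ± 0.348 (adjusted p = 0.149). Without Detroit 562 control 3, 2 genes, HIF1A and BNIP3, were called against SCC-9, where 7.98% of all genes were called. The blocked model called 4 of the 10 between Detroit 562 and FaDu (against 19.3% of all genes), 4 between Detroit 562 and SCC-9 (27%) and 1 between FaDu and SCC-9 (1.21%).

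Most of the 10 genes also differed by library number within a line. With the replicate number in the model, 9 of the 10 genes differed between numbers over all 3 lines at an adjusted p below 0.1, the exception being CA12, and 54% of all tested genes did. By line it was 8 in Detroit 562 (34.5% of all genes), 8 in FaDu (44.2%) and 3 in SCC-9, namely CA9, EGLN3 and BNIP3 (6.89%). The 8 in Detroit 562 include CA9 (adjusted p = 0.0296 by edgeR), which had 0 to 4 reads per library there, near the detection floor. These counts take EGLN3 as counted. After subtraction of SPTSSA, EGLN3 still differed in FaDu (adjusted p = 1.69e-07 by edgeR). It was then not called in Detroit 562 (adjusted p = 0.154) or SCC-9 (adjusted p = 0.304). The study's methods say that the experiment was repeated 2 times, and whether libraries 1 to 3 are those repeats is not given in the sources used here.

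In FaDu both libraries numbered 2 stood high. NDRG1 gave 1953, 9706 and 1486 in control and 1792, 10810 and 1349 with HGF, so that the libraries numbered 2 exceeded the mean of the other 4 by 6.24-fold. CA9 gave 1, 39 and 12 reads in control and 4, 43 and 9 with HGF, an excess of 6.69-fold. ANKRD37 and ADM were 1.86-fold and 1.84-fold higher. EGLN3 was 1.39-fold higher as counted and 2.32-fold after subtraction of SPTSSA, BNIP3 1.3-fold and HIF1A 1.06-fold. In these 7 of the 10 genes both libraries were above the other 4, as in 12.6% of all tested genes, and in 0 of the 10 both were below, as in 12.6%. Of the 7, NDRG1 and CA9 were over 2-fold higher as counted, as were 181 of the 15475 tested genes. The difference was present in the control and in the HGF library. The pattern was noticed in these data, so its counts are a description. Its cause was not tested.

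Other genes of the pathway showed which parts moved with these libraries. Of 28 other HIF targets tested, both libraries numbered 2 were above the other 4 in 20, with a median excess of 1.31-fold, against 1-fold over all tested genes. Among them DDIT4, an inhibitor of mTOR signaling, was 3.85-fold, the transcription factor BHLHE40 2.27-fold and the secreted glycoprotein gene STC2 2.04-fold higher. Of 20 glycolytic HIF targets it was 8, with a median of 1.11-fold, and the glucose transporter gene SLC2A3 was 4.49-fold higher. Of 14 genes of the HIF machinery it was 1, ARNT2, with a median of 1.03-fold. Of 12 paralogues of the carbonic anhydrases and NDRG1 and genes for adrenomedullin receptors it was 6, with a median of 1.39-fold.

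**Figure D5:**
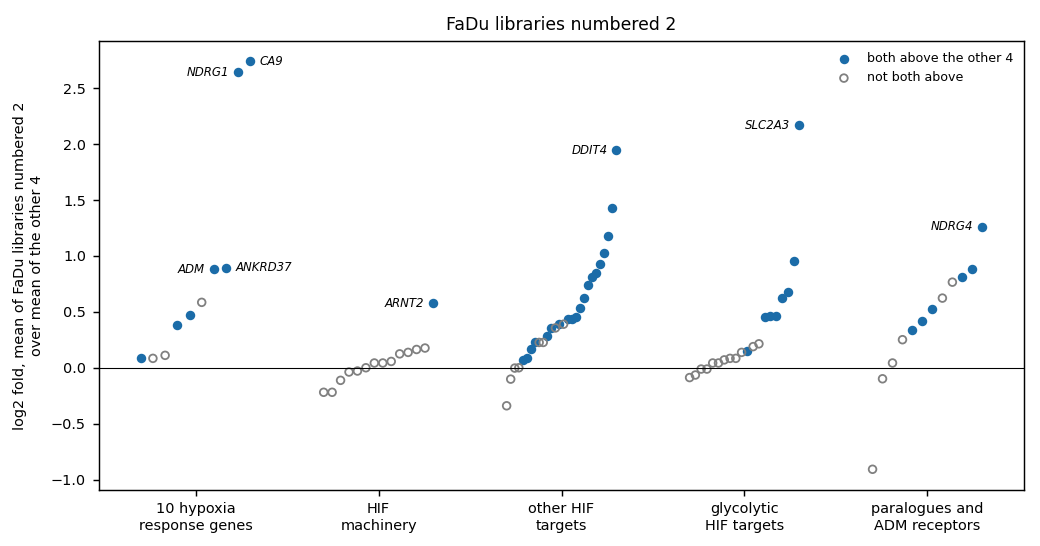
Log2 fold of the mean of the 2 FaDu libraries numbered 2 over the mean of the other 4 FaDu libraries, for the 10 genes and 4 lists of related genes, in order of size within a list. Filled points are genes in which both libraries were above the other 4, which held for 7 of the 10 genes, 1 of 14 genes of the HIF machinery, 20 of 28 other HIF targets, 8 of 20 glycolytic targets and 6 of 12 paralogues and receptor genes, against 12.6% of all tested genes.

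The same lists were counted for HGF in Detroit 562, where 6.1% of all tested genes were called up and 11.7% down. Of the 14 tested genes of the HIF machinery, NAA10, an acetyltransferase, was called up (log2 0.42) and P4HTM, a transmembrane prolyl hydroxylase, was called down (-0.61). Of the 28 other targets, 3 were called up and 0 down, among them ANGPTL4, an inhibitor of lipoprotein lipase (1.03 ± 0.387, SE, adjusted p = 0.063 by edgeR), and JMJD6 (0.53 ± 0.115, adjusted p = 0.00454). Of the 20 glycolytic targets 3 were called up and 0 down, the hexokinase gene HK2 (0.65), the phosphofructokinase gene PFKP (0.44) and the lactate dehydrogenase gene LDHA (0.43). Of 12 paralogues and receptor genes 0 were called up and 4 down, namely CA14 (-1.02), NDRG2 (-0.99), the adrenomedullin receptor gene CALCRL (-0.93) and CA11 (-0.86). The number called was 2 of 14, 3 of 28, 3 of 20 and 4 of 12 in the 4 lists, against 17.8% of all genes. The median log2 fold changes of the 4 lists were -0.0112, 0.0841, 0.145 and -0.454, against -0.00565 over all tested genes and 0.0464 over the 10 genes. In FaDu and SCC-9 0 genes of these lists were called by edgeR without the replicate block. With the block, 2 other targets were called up in FaDu, among them ANGPTL4, and NDRG4 and ADM2 were called down. In SCC-9 the block gave ANGPTL4 up and NDRG2 down. In Detroit 562 it added DDIT4, BNIP3L and ZNF395, all down, so that 3 other targets rose and 3 fell, as well as SLC2A3, up, and CA2 and ADM2, down. The blocked model called 5.58% of all genes in FaDu, 1.9% in SCC-9 and 21.3% in Detroit 562.

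Likeness across the 18 libraries was measured on log2 CPM centred on the mean of each line, which removes the differences between lines and leaves those of library number and HGF. NDRG1 was most like ZMYND8 (Pearson's r 0.949, Spearman's rho 0.796), followed by TCAF2 (0.944, rho 0.88) and the histone demethylase gene KDM3A, a HIF target (0.939, rho 0.792). BNIP3 was most like ITGA5, the α5 integrin gene (0.96, rho 0.901). HIF1A was most like SNX9 (0.963, rho 0.886) and EPAS1 most like CHMP4B (0.964, rho 0.862). Among the 10 genes themselves HIF1A and BNIP3 were most alike (0.891, rho 0.818), followed by HIF1A and EGLN1 (0.837), NDRG1 and EGLN3 (0.792) and NDRG1 and ANKRD37 (0.772), whereas EPAS1 and BNIP3 ran opposite (-0.609). These are descriptions over libraries that share line, number and treatment. They take EGLN3 as counted and include the FaDu libraries numbered 2, in which NDRG1 was 6.24-fold higher. They were not measured without those libraries.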

How the data were processed

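The authors sequenced mRNA of 18 libraries and deposited raw read counts per gene, whole numbers without normalization. Per the study's methods and processing notes, reads were converted with bcl2fastq 2.20.0.422, trimmed with cutadapt 1.16, aligned with STAR 2.5.2b to GRCh38.p12 with GENCODE 28 and counted with bedtools by gene extent and strand, introns included, so that a read counts for every gene it overlaps on that strand. The table also held 18 duplicates of pseudoautosomal genes.

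The tools were edgeR 4.0.16 and limma 3.58.1 under R 4.3.3. Of 19901 genes, filterByExpr kept 15475. TMM normalization and a quasi-likelihood model with 6 group means were applied to all libraries, and p-values were adjusted by Benjamini-Hochberg over all tested genes. Adjusted p-values are from edgeR unless another tool is named. Calls needed a log2 fold change of 0.4 or more in size and an adjusted p under 0.1, and interactions the adjusted p alone. DESeq2 1.42.0, other filters and scalings, a replicate block and leaving out libraries were alternatives. Same-numbered control and HGF libraries deviated together (correlations 0.161 to 0.563 over 9 pairs, against -0.489 to 0.218 over 18 pairs with different numbers). The replicate block takes the numbers as pairs. The ranges overlap, since Detroit 562 HGF 2 was closer to control 1 (0.218) than to control 2 (0.161). Levels per kilobase used exon lengths of a later GENCODE release. On simulated counts for HGF in Detroit 562, 79% of 200 genes changed by a log2 of 1 were recovered and 11.2% of calls were false. All 10 genes were named by rule. The members and lists were chosen with earlier results of these data known. The values of 1 gene of these lists are not reported here.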

Additional observations from a re-analysis of the deposited data

Results flagged for a closer look

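In the model that blocks on library number, the response to HGF was compared in each pair of lines for each of the 10 genes. Of all tested genes, this model called 19.3% between Detroit 562 and FaDu, 27% between Detroit 562 and SCC-9 and 1.21% between FaDu and SCC-9. Of the tests of the 10 genes, 9 were called (adjusted p of the interaction, edgeR). Between Detroit 562 and FaDu these were BNIP3 (log2 difference 0.80 ± 0.107, SE, adjusted p = 0.000296), HIF1A (0.24 ± 0.0531, adjusted p = 0.00793), EGLN1 (0.25 ± 0.0767, adjusted p = 0.0452) and CA12 (1.30 ± 0.436, adjusted p = 0.0623), each greater in Detroit 562. Between Detroit 562 and SCC-9 they were BNIP3 (0.90 ± 0.101, adjusted p = 3.54e-05), HIF1A (0.23 ± 0.0526, adjusted p = 0.00679) and CA12 (1.19 ± 0.282, adjusted p = 0.00823), greater in Detroit 562, and EPAS1 (-0.51 ± 0.0959, adjusted p = 0.00243), which fell in Detroit 562 and had a log2 fold change of 0.02 in SCC-9. Between FaDu and SCC-9 it was EPAS1 (-0.51 ± 0.0983, adjusted p = 0.029). Without the block 0 of these 9 were called by edgeR, at nearly the same log2 differences.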

How the results depend on the processing

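With the replicate number as a block, members called rose from 0 to 1 for HGF in FaDu (EPAS1), and from 0 to 4, 4 and 1 for the differences of response of Detroit 562 to FaDu, Detroit 562 to SCC-9 and FaDu to SCC-9. The block changed no other count of members called by over 1.5 times. It is nested in cell line and could not serve comparisons of untreated lines. For the difference between Detroit 562 and SCC-9, DESeq2 with or without a fold change prior gave 2 (4.56% of all genes). A fit of the lines alone gave 2 (2.98%). Under the stricter rule (log2 fold of 1 or more, adjusted p under 0.05), the average over lines gave 0 in place of 1 (0.743% of all genes). Untreated Detroit 562 against FaDu then gave 3 in place of 5 (32.2%). With no minimum fold the average gave 3 (28.1%). Leaving out 1 library gave 1 to 2 for the average, 0 to 2 for the difference between Detroit 562 and SCC-9 and 3 to 5 for untreated Detroit 562 against FaDu. The sole reversal was NDRG1 between untreated Detroit 562 and FaDu, at 0.78 without both FaDu libraries numbered 2. The Detroit 562 call of EPAS1 was lost with no filter on low counts (adjusted p = 0.156, edgeR). DESeq2 gave no adjusted p for NDRG1. For CA9 in Detroit 562 and FaDu, depth limits the comparison. Except where stated, the causes were not tested.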
